A study of Mus musculus with 2 samples.

Results

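The genes described here encode 5 secreted or membrane-bound signals (Cxcl12, Cxcl14, Cx3cl1, Csf1 and Il34) and 4 receptors (Cxcr4, Ackr3, Cx3cr1 and Csf1r). They were taken from a list of names, and all 9 were matched by identifier among the 43346 mouse genes of the tables. Chemokines are small proteins that steer moving cells through G protein-coupled receptors, while Csf1 and Il34 are the ligands of the receptor tyrosine kinase Csf1r, on which macrophages depend. Cxcl12 acts on Cxcr4, and Ackr3 binds the same ligand and takes it up. In the embryonic kidney these signals are known for roles in blood vessel patterning and in the settling of macrophages.

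Whole kidneys of embryonic day 15.5 B6NCrl mouse embryos, a stage when nephrons are still being added, formed the only group, embryonic kidney. The replicate 1 library came from a pool of 78 embryos and the replicate 2 library from a pool of 62, each of mixed sex, and the RNA input of either library was 10 ng. All embryos were labelled healthy, no treatment or genetic change is listed, and no other tissue or age was sampled. Levels are in TPM, a length-adjusted relative abundance, and errors are SDs over the 2 libraries (n = 2). A whole organ was measured, so fewer cells of a type and less RNA per cell cannot be told apart.

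The pools gave similar values for most genes but differed in markers of neighbouring organs. Total expected counts were 36244861 and 39415002 in replicates 1 and 2, and log2(TPM + 1) correlated at Pearson's r = 0.985 and Spearman's rho = 0.986 over 16157 genes, which are not independent replicates. Counts differed by more than sampling noise, with a chi-square of 11.3 per degree of freedom over 19857 genes, so the libraries were kept as 2 samples. Kidney markers were present in both, with all 5 nephron progenitor, all 6 ureteric, all 5 podocyte and all 4 proximal tubule genes at 1 TPM or more. That level was reached in both libraries by 34.9% of all mouse genes and 62.3% of protein-coding genes. The summed level of 6 adrenal markers went from 46.2 TPM in replicate 1 to 175 in replicate 2, that of 4 liver markers from 202 to 404, and that of 4 skeletal muscle markers from 279 to 150 TPM. The part of these tissues in the members' levels was not tested.

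All 9 genes were transcribed in the E15.5 kidney, over a 78.3-fold range of level in replicate 1 and a 76.9-fold range in replicate 2. Each reached 1 TPM in both libraries, as did 34.9% of all mouse genes and 62.3% of protein-coding genes. Cxcl12 was the highest at 121 ± 9.46 TPM, above 90.5% of detected protein-coding genes, and Il34 the lowest at 1.56 ± 0.141 TPM, above 3.17% of them. Between these stood Ackr3 at 36.5 ± 1.99, Cxcl14 at 19.6 ± 1.16, Csf1r at 12.4 ± 0.877, Csf1 at 7.995 ± 0.643, Cx3cl1 at 7.89 ± 0.0778, Cxcr4 at 7.57 ± 0.537 and Cx3cr1 at 5.71 ± 0.368 TPM. The median of the 9 was 7.995 TPM, against 16.7 TPM over all detected genes.

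**Figure D1:**
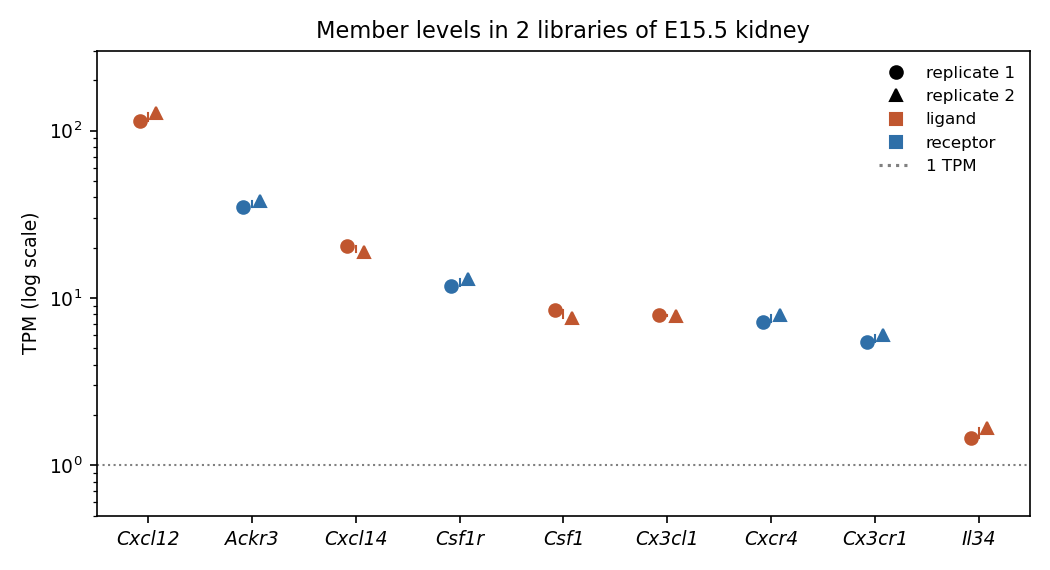
TPM on a log axis for each member, ordered by mean level, with a circle for replicate 1 and a triangle for replicate 2 and a thin vertical line that spans both values; ligands and receptors have separate colours. Cxcl12 sits above 100 TPM in both libraries, Csf1, Cx3cl1, Cxcr4 and Cx3cr1 lie between 5 and 10 TPM, and Il34 lies just above the dotted line at 1 TPM.

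Cxcl12, a chemokine made by stromal cells in many organs, gave 114 TPM from 6551 counts in replicate 1 and 128 TPM from 7793 counts in replicate 2 (ENSMUSG00000061353.7; mm10 chromosome 6, 117168535 to 117181367, plus strand). Both values lie above those of every other member in either library. Its transcripts encode 3 forms of the protein, known as alpha, beta and gamma, which share their first 89 codons and differ only in how the coding sequence ends. The 3 ends, from the GENCODE M21 transcripts on mm10 (plus strand, 5′ to 3′), are shown because they are what separates the forms, with the last 30 shared coding bases in lower case and the form's own end, stop codon included, in capitals.
Cxcl12-202, alpha, chr6:117173580-117173582 for the capitals: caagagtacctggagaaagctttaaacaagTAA
Cxcl12-203, beta, chr6:117178584-117178598 for the capitals: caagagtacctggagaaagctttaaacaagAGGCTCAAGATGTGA
Cxcl12-201, gamma, chr6:117176087-117176179 for the capitals: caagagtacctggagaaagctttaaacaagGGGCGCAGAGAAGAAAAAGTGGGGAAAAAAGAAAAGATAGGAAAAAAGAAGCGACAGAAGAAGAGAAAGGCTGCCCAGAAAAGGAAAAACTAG

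The alpha form held most of the Cxcl12 transcripts in both libraries. It stops directly after the shared codons, and it took 64.3% and 64.6% of the gene's TPM in replicates 1 and 2, from 3201 and 3869 counts. The beta form adds 4 codons and took 22.4% and 23.8%, from 1900 and 2429 counts. The gamma form adds 30 codons, of which 12 are for lysine and 5 for arginine, and it took 5.33% and 4.37%. That long basic tail is known to bind heparan sulfate. The SD of the share between libraries was 0.212 percentage points for alpha, 0.990 for beta and 0.679 for gamma, so the order of the forms was the same in both.

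Because the gamma transcript is long, its part of the reads was larger than its part of the molecules. At 5627 nt, Cxcl12-201 held 12.6% and 10.4% of the gene's counts in replicates 1 and 2, against the TPM shares above. The remaining transcript, Cxcl12-204, is annotated as a retained intron with no coding sequence, and it took 8.0% and 7.25% of the TPM. The quantifier's own SD on the count was 26.6 and 25.4 reads for gamma, against 824 and 813 counts.

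Of the receptors of Cxcl12, Ackr3 was the more abundant. Ackr3, a receptor that clears Cxcl12 and does not couple to G proteins in the usual way, stood at 35.1 TPM (2543 counts) and 37.95 TPM (2907 counts) in replicates 1 and 2 (ENSMUSG00000044337.5; chromosome 1, 90203980 to 90216751, plus strand). Cxcr4, the signalling receptor, stood at 7.19 TPM (282 counts) and 7.95 TPM (348 counts) (ENSMUSG00000045382.6; chromosome 1, 128588199 to 128592293, minus strand). The 2 genes did not overlap, and Ackr3 exceeded Cxcr4 4.89-fold in replicate 1 and 4.77-fold in replicate 2. On the log2(TPM + 1) scale the difference was 2.13 ± 0.0139, past the replicate error limit of 0.79 at the level of Cxcr4. That limit is the size of log2 ratio between the libraries that 95% of genes of like level stay within.

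The ligand exceeded both receptors. Cxcl12 was 3.25-fold and 3.36-fold above Ackr3 in replicates 1 and 2, and 15.9-fold and 16.1-fold above Cxcr4. The log2(TPM + 1) differences, 1.70 ± 0.0354 and 3.83 ± 0.0215, were past the limits of 0.27 and 0.79. These ratios compare transcripts and not protein.

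Nearly all transcripts of both receptors were of 1 form. Ackr3-201, which encodes 362 codons, held 99.6% and 97.7% of the Ackr3 TPM. Cxcr4-201, with 359 codons, held 88.5% and 94.96% of the Cxcr4 TPM, and Cxcr4-202 held the other 11.5% and 5.04%, from 16.2 and 8.48 counts. Cxcr4-202 has a coding start that is 2 codons shorter and is annotated without its 3′ end. Its counts were few, with a quantifier SD of 8.36 and 5.42 reads, so the libraries cannot be set apart on this share.

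Cxcl14, a chemokine of epithelia and stroma with no settled receptor, was the second most abundant of the 5 ligands. It stood at 20.4 TPM (862 counts) and 18.8 TPM (854 counts) in replicates 1 and 2 (ENSMUSG00000021508.10; chromosome 13, 56288643 to 56296551, minus strand). Cxcl12 exceeded it 5.60-fold and 6.80-fold, a log2(TPM + 1) difference of 2.56 ± 0.193 against a limit of 0.37. The table holds 1 transcript for it, Cxcl14-201, which encodes 99 codons.

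Cx3cl1 and its receptor Cx3cr1 had like levels. Cx3cl1, or fractalkine, is a chemokine on a mucin stalk that is anchored in the membrane until proteases release it. It stood at 7.94 TPM (618 counts) and 7.83 TPM (663 counts) in replicates 1 and 2 (ENSMUSG00000031778.8; chromosome 8, 94772009 to 94782427, plus strand). Cx3cr1, which marks tissue macrophages and monocytes, stood at 5.45 TPM (415 counts) and 5.97 TPM (493 counts) (ENSMUSG00000052336.6; chromosome 9, 119901616 to 120069879, minus strand). The ligand was 1.46-fold and 1.31-fold higher without overlap between the genes, but the log2(TPM + 1) difference of 0.41 ± 0.0917 did not pass the limit of 0.79.

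The coding sequence of each was covered mostly or wholly by 1 form. Cx3cl1-201, with 395 codons, held 98.7% and 100% of its gene's TPM. By the deposited posterior mean its share was lower, at 89.1% and 91.2%. Cx3cr1-202 held 90.9% and 87.3% and Cx3cr1-201 held 9.08% and 12.7%, and both carry the same 354 codons. The Cx3cr1 transcripts therefore differ only outside the coding sequence, and the quantifier SD of the smaller share was 22.1 and 29.6 reads against 44.0 and 72.8 counts. The ADAM proteases that release Cx3cl1 were several times higher than it, with Adam10 at 75.7 and 71.5 TPM and Adam17 at 33.6 and 33.7 TPM in replicates 1 and 2.

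Csf1, the growth factor that keeps macrophages alive, exceeded Il34, the other ligand of the same receptor. Csf1 stood at 8.45 TPM (655 counts) and 7.54 TPM (602 counts) in replicates 1 and 2 (ENSMUSG00000014599.6; chromosome 3, 107741048 to 107760469, minus strand). Il34, best known from skin and brain, stood at 1.46 TPM (54 counts) and 1.66 TPM (63 counts) (ENSMUSG00000031750.11; chromosome 8, 110741829 to 110805924, minus strand). Csf1 was thus 5.79-fold and 4.54-fold above Il34, a log2(TPM + 1) difference of 1.81 ± 0.183 against a limit of 0.92. With 54 and 63 counts, Il34 is the least precisely measured member.

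Csf1 transcripts were split between a long and a short coding form at close to equal shares. The long form, encoding 552 codons, is carried by Csf1-201 and Csf1-203 with the same coding sequence, and the short form, with 257 codons, by Csf1-202. The short form lacks a run of 885 coding bases (295 codons; chromosome 3, 107748285 to 107749169, minus strand) that lies within 1 exon of the long form and holds the sites where the secreted factor is cut from its precursor. The protein made from the short form is known to stay longer on the cell surface. The junction, from the same annotation (minus strand, 5′ to 3′), is shown because it is what separates the forms, with the 30 coding bases before it in lower case and the 30 after it in capitals.
Csf1-202, short, chr3:107748255-107748284 for the capitals: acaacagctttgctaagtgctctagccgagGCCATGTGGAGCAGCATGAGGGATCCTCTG
Csf1-201, long, chr3:107749140-107749169 for the capitals: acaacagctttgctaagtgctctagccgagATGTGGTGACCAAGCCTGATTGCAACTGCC

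The long form held 53.9% of the Csf1 TPM in replicate 1 and 45.7% in replicate 2, and the short form 42.0% and 47.5%. Which form was higher in TPM changed between the libraries, so no order of the forms can be given on that scale. By counts, which are not adjusted for length, the long form was higher in both, at 388 and 313 against 257 and 280. In TPM the long form stood at 4.55 and 3.44 and the short form at 3.55 and 3.58. Of the long form, Csf1-201 with its longer 3′ end took 38.6% and 32.0% of the gene's TPM and Csf1-203 took 15.2% and 13.7%. The quantifier SD was 41.9 and 38.7 reads for Csf1-201, against 326 and 259 counts, and 30.7 and 29.2 reads for Csf1-202, against 257 and 280 counts.

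Il34 reads came mostly from the transcript of the 235-codon protein. Il34-201 held 72.2% and 83.4% of the TPM in replicates 1 and 2, from 41.6 and 58.8 counts. Il34-204, which encodes 219 codons, held 16.7% in replicate 1 and 0% in replicate 2, from 10.1 and 0 counts. Its quantifier SD was 7.68 and 5.04 reads and its share by the posterior mean 15.2% and 5.84%. The libraries therefore cannot be set apart on this share. The non-coding Il34-205 held 11.1% and 16.6%. By the deposited posterior mean, Il34-201 held only 39.6% and 53.5%, so its share at this depth rests on the estimator. On the other strand, Gm15894 and Gm15895 overlap Il34 exons by 22 and 75 nt. Gm15894 had 1 count in each library and Gm15895 had 5 and 8.

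Csf1r, the receptor tyrosine kinase of Csf1 and Il34, was higher than its ligands in both libraries. It stood at 11.8 TPM (1291 counts) in replicate 1 and 13.0 TPM (1524 counts) in replicate 2 (ENSMUSG00000024621.11; chromosome 18, 61100598 to 61132149, plus strand). Against Csf1 it was 1.39-fold and 1.73-fold higher, and the log2(TPM + 1) difference of 0.57 ± 0.198 did not pass the limit of 0.79. Against Il34 it was 8.06-fold and 7.84-fold higher, a difference of 2.39 ± 0.0148 that passed the limit of 0.92. Against Cx3cr1, the other macrophage receptor here, it was 2.16-fold and 2.18-fold higher, and the difference of 1.00 ± 0.0154 passed the limit of 0.79.

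The level of Csf1r rests on a transcript that overlaps a neighbour. Csf1r-202 held 85.1% and 80.6% of the TPM and Csf1r-201 held 14.9% and 19.4%, and both encode the same 977 codons. The last exon of Csf1r-202 overlaps exons of Hmgxb3, a gene on the opposite strand, by 873 nt, and whether counting used strand is not given. Hmgxb3 itself stood at 10.1 and 9.51 TPM. Csf1r-201, which does not overlap it, stood at 1.75 and 2.52 TPM, and with this transcript alone the comparisons change: the log2(TPM + 1) difference to Cx3cr1 becomes -1.11, that to Csf1 becomes -1.53, and that to Il34 falls to 0.28 and within the limit. Csf1r-201 alone is not the level of the gene, since reads of the shared exons were divided between both transcripts.

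Over all 36 pairs of the 9 genes, 27 passed the replicate error limit in each library. How many pairs of other detected genes would pass the same rule was not computed, so the 27 only describe these genes. Il34 differed from each of the others, and Cxcl12, Ackr3 and Cxcl14 each differed from all that stood below them. The 9 pairs that did not pass are all among Csf1r, Csf1, Cx3cl1, Cxcr4 and Cx3cr1, where only Csf1r and Cx3cr1 were set apart. Csf1 against Cx3cl1 gave 0.02 ± 0.0907, Csf1 against Cxcr4 0.07 ± 0.194 and Cx3cl1 against Cxcr4 0.05 ± 0.103, with opposite signs in the 2 libraries.

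Of the 8 pairs of neighbours in the order of levels, 4 passed and 4 did not. Those that passed were Cxcl12 over Ackr3, Ackr3 over Cxcl14 at 0.87 ± 0.158, Cxcl14 over Csf1r at 0.62 ± 0.176 and Cx3cr1 over Il34 at 1.39 ± 0.000642. With FPKM in place of TPM, the step from Cxcl14 to Csf1r no longer passed, at 0.60, and Csf1r over Cxcr4 passed, at 0.62 against 0.64 ± 0.00401 with TPM. These differences moved little, and it was the limits that changed. The bin edges were kept for FPKM, so Csf1r, at 12.4 TPM but 8.33 FPKM, fell in a lower bin. No p is given for these pairs, because an exact test on 2 libraries cannot go below 0.5.

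**Figure D2:**
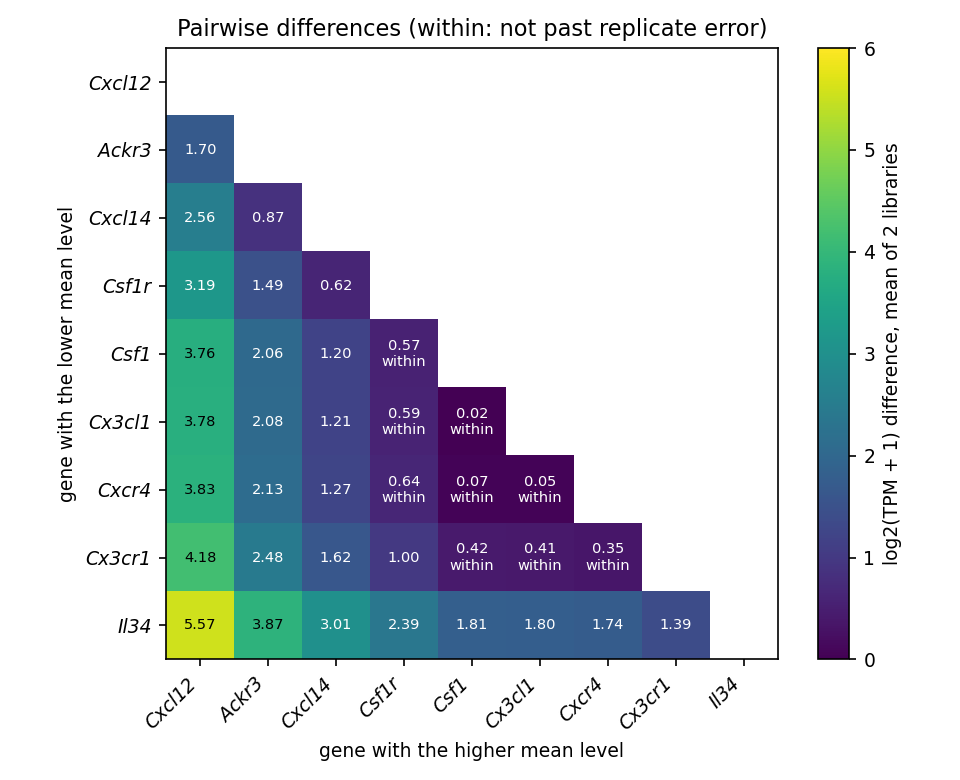
Difference in log2(TPM + 1), mean of 2 libraries, between the member named on the x axis and the lower one on the y axis, from dark (0) to light (6). Cells marked "within" did not pass replicate error, and all 9 of them join Csf1r, Csf1, Cx3cl1, Cxcr4 and Cx3cr1.

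Differences between the pools stayed within replicate error for these genes. None of the 9 had a TPM ratio beyond the replicate error limit of its level, as 5.01% of detected genes do, a share that the limit fixes. With so low a share, this does not set the 9 apart from other genes. Among genes of like level, the share with a larger ratio ran from 17.7% for Cxcl12 to 93.2% for Cx3cl1. The log2 TPM ratio of replicate 2 over replicate 1 ran from -0.16 for Csf1 to 0.19 for Il34, against a median of 0.02 over detected genes. All 4 receptors and 2 of the 5 ligands were higher in replicate 2, as were 54.3% of detected genes. By counting error alone, the ratio of count shares left out 1 for 3 genes: Cxcl12 at 1.09 (1.06 to 1.13), Csf1r at 1.09 (1.01 to 1.17) and Csf1 at 0.845 (0.755 to 0.946; exact 95% Clopper-Pearson intervals). Those ratios lie within the spread of biological replicates at the same level.

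**Figure D3:**
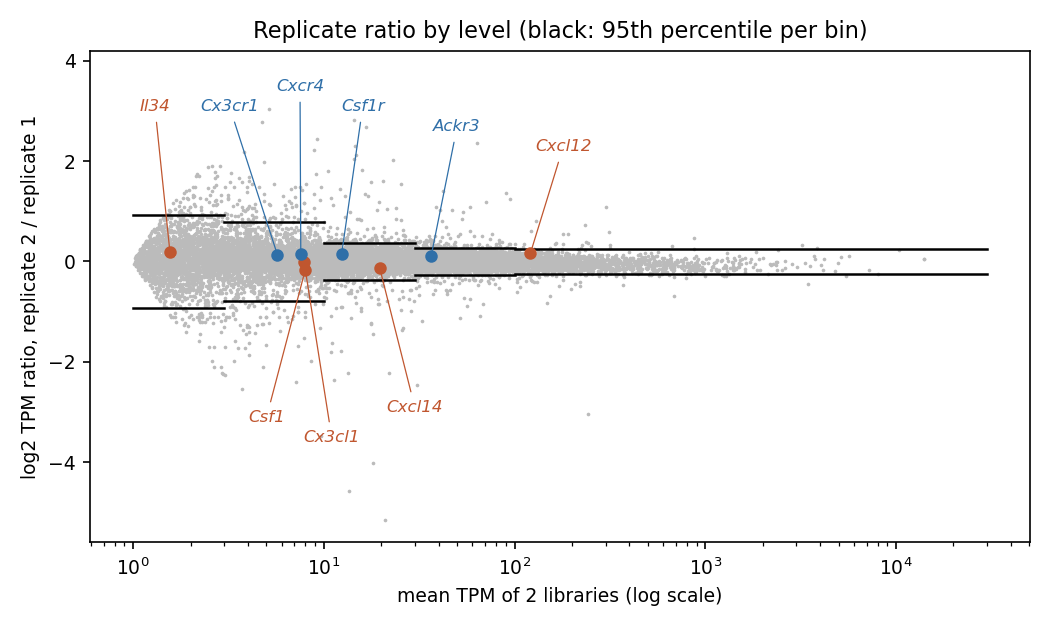
Log2 TPM ratio of replicate 2 over replicate 1 against mean TPM on a log axis, for all named genes detected in both libraries (grey) and the members (coloured), with the 95th percentile of the absolute ratio in each level bin as black lines. The members lie between -0.16 and 0.19 and inside the lines.

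Markers of macrophages, which carry Csf1r and Cx3cr1, were present in both pools. Of 12 macrophage markers, 10 reached 1 TPM in both libraries, and Timd4 and Mpeg1 did not. The same level was reached by 34.9% of all mouse genes and 62.3% of protein-coding genes. Lyz2 stood at 60.2 and 65.8 TPM, the complement gene C1qb at 35.0 and 39.3 and Laptm5 at 20.7 and 23.2 in replicates 1 and 2. The summed level of the 12 was 177 TPM in replicate 1 and 191 in replicate 2. More markers were higher in replicate 2 for macrophages (9 of 12), endothelium (7 of 7), podocytes (5 of 5), stroma (7 of 8) and other leukocytes (6 of 8). Nephron progenitor (3 of 5), proximal tubule (3 of 4), adrenal (6 of 6) and liver markers (4 of 4) leaned the same way. Ureteric (1 of 6) and skeletal muscle markers (0 of 4) leaned the other way. Of detected genes, 54.3% were higher in replicate 2, so this direction is not particular to macrophages. The summed level of 7 endothelial markers was 355 and 375 TPM, led by Plvap, Emcn and Pecam1, and that of 8 stroma markers 2362 and 2669 TPM, led by Col1a1, Col3a1 and Penk. The 8 markers of other leukocytes summed to 67.1 and 92.5 TPM, led by S100a8, Gata2 and Mpo. The part of any of these cell types in the members' levels was not tested.

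Of 32 other chemokine ligands, 10 reached 1 TPM in both libraries, beside 34.9% of all mouse genes and 62.3% of protein-coding genes. Another 20 were below 1 TPM in both, and 8 of those had 0 counts in both, each of which allows up to 3 counts a library. The remaining 2, Ccl24 and Cxcl10, reached it in replicate 2 alone. The list median was 0.455 ± 0.0212 TPM, against 0.1 TPM over all mouse genes. Pf4, a chemokine of platelets and megakaryocytes, led at 29.4 and 29.8 TPM in replicates 1 and 2, above Cxcl14. Ccl11, which attracts eosinophils, stood at 9.76 and 10.1 TPM, and Ccl25, known from thymus and gut, at 7.73 and 7.34. Ccl6 had the widest gap among the detected ligands, at 6.76 and 3.14 TPM. Cxcl12 was above every ligand of this list in both libraries.

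Of 20 other chemokine receptors, 3 reached 1 TPM in each library and 17 in neither, beside the same 34.9% of all mouse genes and 62.3% of protein-coding genes. The median of the list was 0.168 ± 0.0106 TPM. The highest were Ccr2 of monocytes at 2.12 and 1.82 TPM in replicates 1 and 2, Ccr1 at 2.2 and 1.58, and the scavenging receptor Ackr4 at 2.16 and 1.19. All 3 chemokine receptors among the members, Ackr3, Cxcr4 and Cx3cr1, stood above each of these in both libraries.

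Among related cytokines and their receptors, 4 of 14 matched genes reached 1 TPM in both libraries, beside 34.9% of all mouse genes and 62.3% of protein-coding genes. The list median was 0.473 ± 0.0247 TPM. Kitl, the ligand of Kit, stood at 21.3 and 19.5 TPM in replicates 1 and 2, and Kit, a receptor kinase of the same family as Csf1r, at 12.6 and 13.5. Csf2ra, a chain of the receptor for GM-CSF, stood at 18.4 and 22.2 TPM. The 9 genes below 1 TPM in both libraries included 2 with 0 counts.

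Signalling partners of both receptor classes were present. For the counts that follow, 34.9% of all mouse genes and 62.3% of protein-coding genes reached 1 TPM in both libraries. Of 12 transducers of chemokine receptors, 11 reached 1 TPM in each library, and the median was 21.2 ± 2.32 TPM. The G protein subunits led, with Gnb1 at 390 and 396 TPM, Gnai2 at 330 and 344 and Gnai3 at 144 and 143 in replicates 1 and 2. All 12 signal and lineage genes downstream of Csf1r reached 1 TPM, and their median was 7.58 ± 0.661 TPM. The adaptor Grb2, made in most cells, stood at 78.5 and 72.8 TPM, and the myeloid adaptor Tyrobp at 27.7 and 30.3. Among the 6 proteases and binding partners, all 6 reached 1 TPM, and Dpp4, the peptidase that trims and inactivates Cxcl12, stood at 62.5 and 67.3 TPM. Sdc1, a syndecan that binds Il34, stood at 51.96 and 53.8 TPM.

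**Figure D4:**
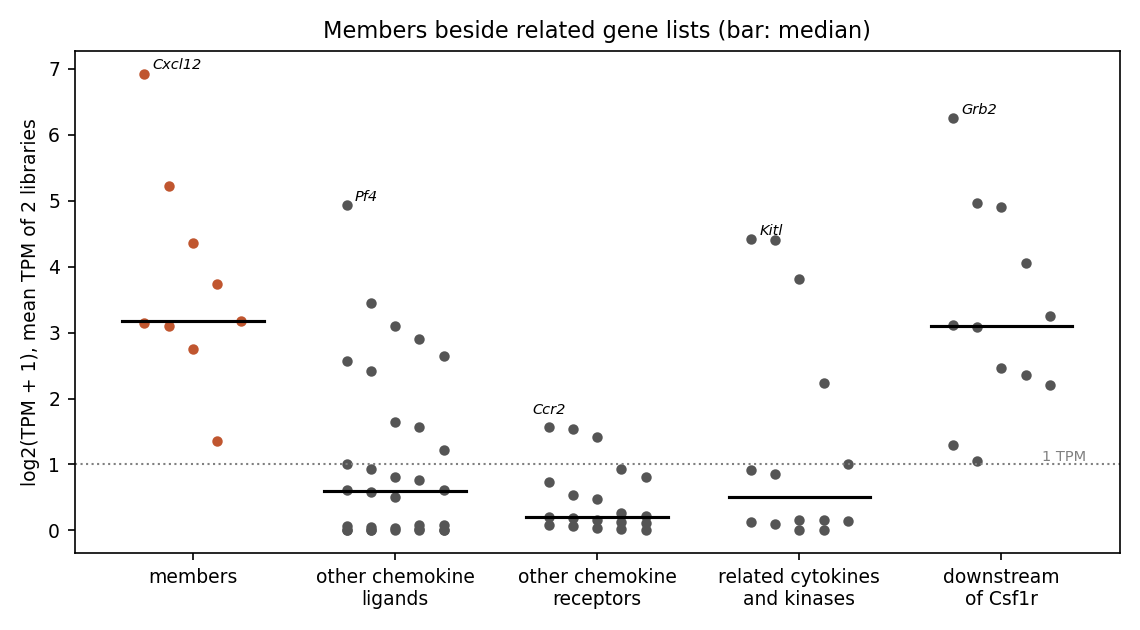
Log2(TPM + 1) of the mean TPM over 2 libraries, 1 point a gene, for the 9 members and 4 related gene lists, with the list median as a bar and the highest gene named. Most other chemokine ligands and receptors lie below the dotted line at 1 TPM, and all 9 members lie above it.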

How the data were processed

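Total RNA from 2 pools of embryonic mouse kidney was sequenced, 1 library a pool. Per the text files deposited beside the tables, reads were aligned to mm10 and quantified with GENCODE annotation M4. Which aligner, quantifier and strand setting were used is not given in the sources used here. Per the file headers, the tables hold expected counts (reads a feature, estimated and not always whole), TPM, FPKM and, for transcripts, the posterior SD of the count. The deposited TPM are scaled over all features, spike-ins included. The percent of a gene's TPM held by each transcript is a deposited column.

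GENCODE M21, also on mm10, gave symbols, coordinates and coding sequences by identifier; 42462 of 43346 genes matched, and Flt3l is not analysed here. Columns of other samples numbered 0. Total expected counts were 36244861 and 39415002 in replicates 1 and 2.

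Replicate error was the size of log2 TPM ratio that 95% of genes at 1 TPM or more in both libraries did not exceed, set apart for mean levels starting at 1, 3, 10, 30 and 100 TPM. A pair of genes was called where log2(TPM + 1) differed in 1 direction in both libraries by more than the limit at the lower gene's level. Count ratios have exact Clopper-Pearson intervals at 95%. No p was computed, since the smallest exact 2-sided p from 2 libraries is 0.5.

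Alternatives were FPKM, TPM rescaled to mouse genes, a pseudocount of 0.1, detection at 0.5 or 5 TPM, dropping the filter on low values, scaling by edgeR's TMM and DESeq2's size factors, shares of counts, and each library alone. Transcript shares from the posterior mean and Csf1r-201 alone were added after the data were seen. Named are all 9 members, the 3 highest genes of each list and transcripts at 10% or more in either library, except that markers of kidney epithelia and of neighbouring organs are given as counts or sums only. One gene of the list downstream of Csf1r is not reported here. Cxcl12-201, Cxcl12-204, Hmgxb3, Adam17, Timd4, Mpeg1, Csf2rb, Il34's overlapping genes and, among the other chemokines, Ccl6, Ccl24 and Cxcl10 were named after their values were seen. Members and lists were chosen with earlier results of these data known. Versions were Python 3.11.15, pandas 2.3.3, scipy 1.17.1, R 4.3.3, edgeR 4.0.16 and DESeq2 1.42.0.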

Additional observations from a re-analysis of the deposited data

How the results depend on the processing

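At 5 TPM, 8 members were detected, and Il34 dropped out. Detection at 0.5 TPM or in either library alone is looser than the main rule, so all 9 had to stay. With a pseudocount of 0.1 or with FPKM, 27 pairs passed replicate error, and with Csf1r-201 alone 29 did. With FPKM, Cxcl14 over Csf1r was lost and Csf1r over Cxcr4 was gained. FPKM differs from TPM by 1 factor a library, so it acts through the pseudocount, the level bins and their limits. Either library alone also gave 27 pairs, but that rule is looser than the main one and could only have added pairs. Dropping the filter on low values changes no member's value, only the error limit, and left 27 pairs. No member passed the replicate error limit with FPKM, TMM or DESeq2 scaling. With Csf1r-201 alone, 4 differences turned: Csf1r against Csf1 to -1.53, against Cx3cl1 to -1.51, against Cxcr4 to -1.46 and against Cx3cr1 to -1.11; the construction removes most of the counts of Csf1r. With each library left out in turn, 3 differences that had not passed changed sign: Csf1 against Cx3cl1 ran from -0.0482 to 0.080, Csf1 against Cxcr4 from -0.0677 to 0.206 and Cx3cl1 against Cxcr4 from -0.0195 to 0.126. The median level of the members was 5.38 as FPKM (another unit), 8.55 after rescaling to mouse genes, and 7.95 to 8.45 with each library alone, against 7.995 TPM. Other thresholds moved counts in the lists. At 5 TPM, 4 other chemokine ligands, 0 other chemokine receptors and 7 genes downstream of Csf1r were detected. At 0.5 TPM, 6 other receptors and 7 related cytokine genes were. The share of all mouse genes at 0.5 or 5 TPM was not computed. These counts, and that of the members at 5 TPM, therefore cannot be set against other genes. Members with 2 or more transcripts at 10% numbered 4, also by shares of counts, and 5 with either library alone or with the posterior mean. Shares of counts, which favour long transcripts, moved Csf1-201 from 35.3% to 46.4%, Csf1-203 from 14.4% to 9.23%, Cxcl12-202 from 64.4% to 49.3%, Cxcl12-203 from 23.1% to 30.1% and Il34-205 from 13.9% to 5.45%. No paired analysis was possible because there is only 1 group. Replicate ratios could not be computed with 1 library left out. Depth limits Il34 most, and the intervals cover counting error only.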
